A study of Homo sapiens with 29 samples.

Results

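The genes described here are the G1 cyclins and the kinases they activate: the D-type cyclins CCND1, CCND2 and CCND3, the E-type cyclins CCNE1 and CCNE2, and the cyclin-dependent kinases CDK2, CDK4 and CDK6. They were taken by gene symbol from a table of 28266 genes, which gave 8 members of 8 sought, and all 8 passed the filter on low counts together with 13136 genes in total. The study asked how loss of SMARCA4, an ATPase (BRG1) that powers SWI/SNF chromatin remodelling, affects senescent cells. Its RNA sequencing used IMR90 ER:RAS cells, a line of human lung fibroblasts infected with a retroviral vector for a RAS G12V fusion to the estrogen receptor, which 4-hydroxytamoxifen (4OHT) switches on. By the labels, all 3 groups carried this fusion and received siRNA 1 day before 4OHT or its solvent, and RNA was taken on day 7. DMSO_siNT was treated with DMSO and non-targeting siRNA (siNT), 4OHT_siNT with 4OHT and siNT, and 4OHT_siSMARCA4 with 4OHT and siRNA against SMARCA4. Each group held 6 libraries, and its siRNAs were numbered 2 and 4.

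D-type cyclins are made when cells receive growth signals. They bind CDK4 or CDK6, and these complexes start the phosphorylation of the retinoblastoma protein, which otherwise holds back E2F transcription factors. E2F then drives CCNE1, CCNE2 and the genes for DNA replication, and cyclin E with CDK2 completes the phosphorylation and opens S phase. Senescent cells are held in a stable arrest in which the inhibitors of these kinases are high. Protein and kinase activity were not measured here.

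Growing libraries held 9657309 to 13448183 counts each, senescent controls 13237672 to 15407710 and knockdown libraries 11382143 to 18039313. Libraries are named by siRNA number and set (4-2V is siRNA 4 in set 2V). The set letters V and VM are not explained in the sources used here and were not balanced: all 6 4OHT_siNT libraries were VM, DMSO_siNT held 3 V and 3 VM, and 4OHT_siSMARCA4 held 3 V, 2 VM and 1 library with siRNA 2 whose column name reads 1VM, a set that no sample title gives for that siRNA. This library is called unlabelled and was kept out of the VM values. Each comparison is therefore also given within the 11 VM libraries. SMARCA4 was at 274.8 to 329.9 counts-per-million (CPM) in 4OHT_siNT and at 70.4 to 140.7 CPM in 4OHT_siSMARCA4. One growing library, DMSO_siNT 4-2V, stood apart: it had the smallest total, ESR1 (the receptor whose sequence the transgene shares) at 29.5 CPM against 1034 to 1316 CPM in the other 5, and HRAS at 436.5 against 2165 to 2852 CPM. These levels go against its label, and whether it carried the fusion was not tested. It was also the lowest of its group for CCND1, CCND3, CCNE1, CCNE2 and CDK2, and values without it are given where a call or a sign changed. The 7 fibroblast markers were all measured, with sums of 11280 to 31210 CPM in growing cells, 14890 to 19790 in senescent controls and 8620 to 12560 with the knockdown. The growing sum of 11280 CPM was that of DMSO_siNT 4-2V. In 4OHT_siNT 4 of 7 were called lower than in DMSO_siNT, 6 of 7 without DMSO_siNT 4-2V and 5 of 7 within VM libraries. In 4OHT_siSMARCA4 6 of 7 were called lower than in 4OHT_siNT. The 7 epithelial, endothelial and lymphoid markers summed to at most 3.35 CPM in any library. The part of these marker differences in the results was not tested. In bulk RNA, fewer cells with a transcript and less of it per cell cannot be told apart.

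The counts carry no coordinates, and the positions that follow are those of GENCODE version 44 on GRCh38. CCND1 lies on chromosome 11, 69641156 to 69654474, plus strand. CCND2 lies on chromosome 12, 4269771 to 4305353, plus strand, and CCND3 on chromosome 6, 41934934 to 42050357, minus strand. CCNE1 lies on chromosome 19, 29811991 to 29824312, plus strand, and CCNE2 on chromosome 8, 94879770 to 94896678, minus strand. CDK2 lies on chromosome 12, 55966781 to 55972789, plus strand, CDK4 on chromosome 12, 57747727 to 57756013, minus strand, and CDK6 on chromosome 7, 92604921 to 92836573, minus strand. All 8 are protein-coding. Some share exon bases with a gene on the opposite strand: TSPAN31 covers 44.25% of the exon bases of CDK4, INTS8 37.05% of those of CCNE2, LTO1 10.44% of those of CCND1, and PMEL 2.29% and a long non-coding RNA with no symbol 14.54% of those of CDK2. The libraries were strand-specific, but whether strand was used in counting is not stated, so reads in these shared stretches are uncertain. A protein-coding entry with no symbol also shares 999 exon bases of CCND2 on the same strand.

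Levels between genes were compared as CPM per kb of exon. CCND1 stood far above the rest in every group, at 572.5 ± 95.1 (SD, n = 6) in DMSO_siNT, 698.5 ± 30.2 in 4OHT_siNT and 527.7 ± 97.6 in 4OHT_siSMARCA4. CDK4 was second, at 45.7 ± 5.44, 42.5 ± 3.62 and 61.4 ± 7.65 CPM per kb, followed by CCND3 at 25.4 ± 5.94, 26.5 ± 1.57 and 21.8 ± 2.63. With this length, no library of a lower-placed gene among these overlapped the gene above it. The longest transcript has 2394 of the 5761 exon bases of CCND3 and 1865 of the 3094 of CDK4. That length would place CCND3 nearer to CDK4, and overlap was not examined with it. CCNE2 was lowest in each group, at 1.496 ± 0.394, 0.0861 ± 0.0522 and 0.223 ± 0.0745 CPM per kb. The order in between differed by group: in DMSO_siNT the ranges of CDK2 and CCND2, of CCND2 and CDK6, and of CDK6 and CCNE1 overlapped, in 4OHT_siNT only those of CCND2 and CDK2 did among neighbours, and in 4OHT_siSMARCA4 CCNE1, CDK2, CCND2 and CDK6 formed an overlapping run.

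Each family had 1 dominant transcript, and the make-up differed most between groups for the E-type cyclins. By CPM per kb, CCND1 was 94.6%, 94.6% and 95.1% of the D-type cyclins in DMSO_siNT, 4OHT_siNT and 4OHT_siSMARCA4. CCNE1 was 75.6% ± 2.26 (SD, n = 6) of the E-type cyclins in DMSO_siNT, 98.7% ± 0.740 in 4OHT_siNT and 97.4% ± 0.829 in 4OHT_siSMARCA4. Single growing libraries lay between 73.5% and 79.4%, below all senescent ones (96.3% to 99.3%). CDK4 was 86.5% ± 2.43 of CDK4 plus CDK6 in DMSO_siNT, 91.9% ± 0.962 in 4OHT_siNT and 93.8% ± 1.91 in 4OHT_siSMARCA4. The shares rest on the exon length used. With the longest transcript in place of all exon bases, CCND3 was 8.49% instead of 4.16% of the D-type cyclins in DMSO_siNT, and CDK4 was 91.0% instead of 86.5% of its pair.

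**Figure D1:**
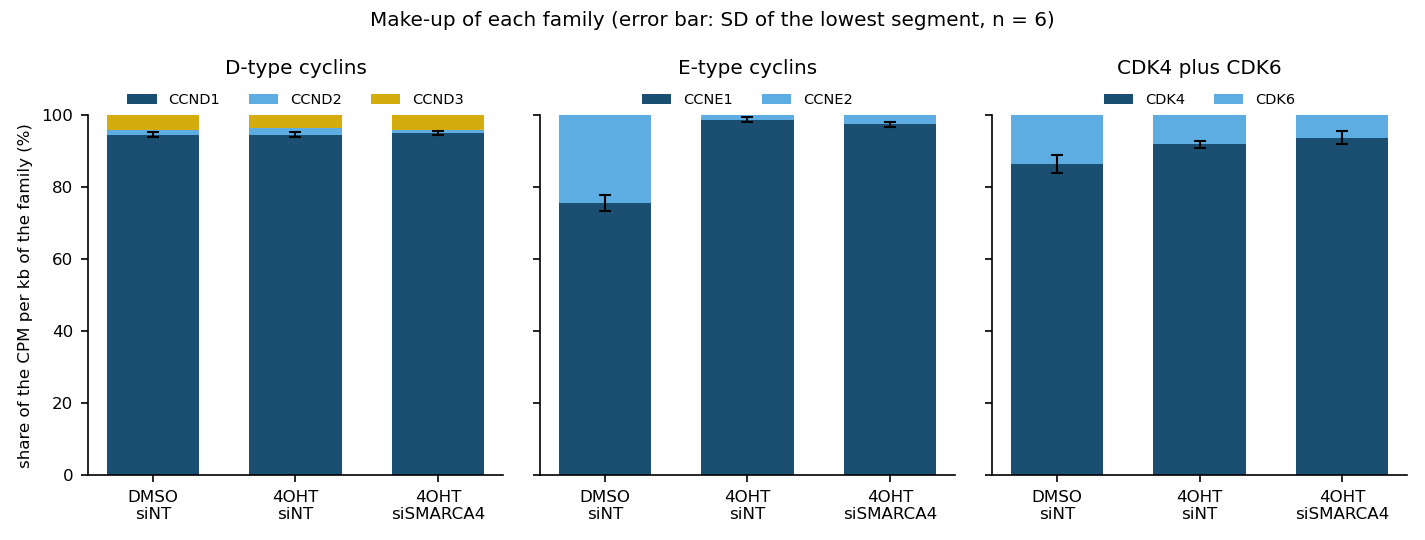
Stacked bars give the mean share of each gene in the CPM per kb of its family in the 3 groups (y axis in percent, n = 6 libraries a group), with the SD of the lowest segment. CCNE2 takes up 24.4% of the E-type cyclins in DMSO_siNT and 1.25% in 4OHT_siNT, while the make-up of the D-type cyclins differs by under 1 percentage point for CCND1.

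To ask how cells given 4OHT differed from growing ones, 4OHT_siNT was compared with DMSO_siNT. RAS signalling and the arrest cannot be told apart in this design. CCNE2 fell 17.2-fold and CDK6 fell 1.92-fold, while CCNE1 and CCND2 rose. Of the 8 members, 2 were called higher and 2 lower (edgeR quasi-likelihood test, adjusted p under 0.05), against 23.9% of all genes called higher and 28.9% called lower, so that the counts are near the background. The 2 groups did not overlap for 3 members (CCNE1, CCNE2 and CDK6), against 33.8% of all genes. Within VM libraries 3 members were called, with 53.5% of all genes called, and without DMSO_siNT 4-2V 4 were, with 58.3% of all genes.

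CCNE2 encodes cyclin E2, a partner of CDK2. Growing libraries held 3.35, 6.14, 6.77, 7.31, 7.74 and 8.15 CPM, and 4OHT_siNT libraries 0.205, 0.218, 0.277, 0.312, 0.445 and 0.813 CPM. All senescent control libraries lay below all growing ones. CCNE2 fell by 4.10 ± 0.32 on the log2 scale (adjusted p = 2.46e-09), 17.2-fold, and the log2 fold change was −4.23 within VM libraries. The senescent level rests on 3 to 11 counts a library, 31 in all, which is 0.375 CPM pooled with an exact Poisson interval of 0.255 to 0.532 at 95% for counting error only. INTS8, which overlaps it on the other strand, was at 34.2 to 43.1 CPM in 4OHT_siNT, with no fall (log2 fold change 0.23 ± 0.15, adjusted p = 0.207).

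CCNE1, which encodes the other E-type cyclin, went the opposite way. It was at 6.22, 11.6, 11.6, 12.02, 13.2 and 13.3 CPM in DMSO_siNT and at 15.0, 16.6, 16.8, 16.8, 17.0 and 17.2 CPM in 4OHT_siNT, with no overlap. The rise was 0.54 ± 0.13 on the log2 scale (adjusted p = 0.00191), 0.39 within VM libraries and 0.43 without DMSO_siNT 4-2V, called in both.

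CDK6, a partner of the D-type cyclins, was at 61.3, 63.7, 88.8, 101.9, 103.7 and 107.5 CPM in DMSO_siNT. In 4OHT_siNT it was at 37.5, 40.1, 47.1, 48.8, 49.2 and 51.1 CPM, all lower. It fell by 0.94 ± 0.16 on the log2 scale (adjusted p = 4.52e-05) and by 0.64 within VM libraries (adjusted p = 0.000589). CDK4, its close relative, differed by −0.10 ± 0.11 (adjusted p = 0.419), with overlapping ranges of 114.3 to 158.2 and 113.8 to 141.1 CPM. The TSPAN31 gene opposite CDK4 fell by 1.503 ± 0.215 on the log2 scale in the same comparison, from 18.2 to 33.2 CPM in DMSO_siNT to 5.47 to 11.8 CPM in 4OHT_siNT. CDK2, the partner of the E-type cyclins, differed by 0.24 ± 0.16 (adjusted p = 0.207), by 0.00 within VM libraries and by 0.12 without DMSO_siNT 4-2V (adjusted p = 0.381).

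Among the D-type cyclins only CCND2 was called, and by a narrow margin. The log2 fold change was 0.80 ± 0.30 (adjusted p = 0.0329), and ranges of 43.9 to 125.7 and 65.4 to 155.3 CPM overlapped. Within VM libraries it was 0.51 (adjusted p = 0.23). The call was lost when any of 7 libraries was left out in turn: DMSO_siNT 2-1V, 2-2V, 4-2VM or 4-3VM (0.72 to 0.77) and 4OHT_siNT 2-1VM, 2-2VM or 2-3VM (0.68 to 0.69). CCND1 was at 2050 to 3437 CPM in DMSO_siNT and 3160 to 3593 in 4OHT_siNT (0.29 ± 0.13, adjusted p = 0.0779), and it was called higher by DESeq2 (0.30, adjusted p = 0.0341) and when DMSO_siNT 2-2VM (0.37, adjusted p = 0.0267) or 4OHT_siSMARCA4 4-2VM (0.30, adjusted p = 0.0452) was left out. CCND3 was at 92.0 to 187.7 and 138.4 to 162.4 CPM (0.06 ± 0.13, adjusted p = 0.707), and its sign turned within VM libraries (−0.17, adjusted p = 0.144) and without DMSO_siNT 4-2V (−0.03, adjusted p = 0.799).

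**Figure D2:**
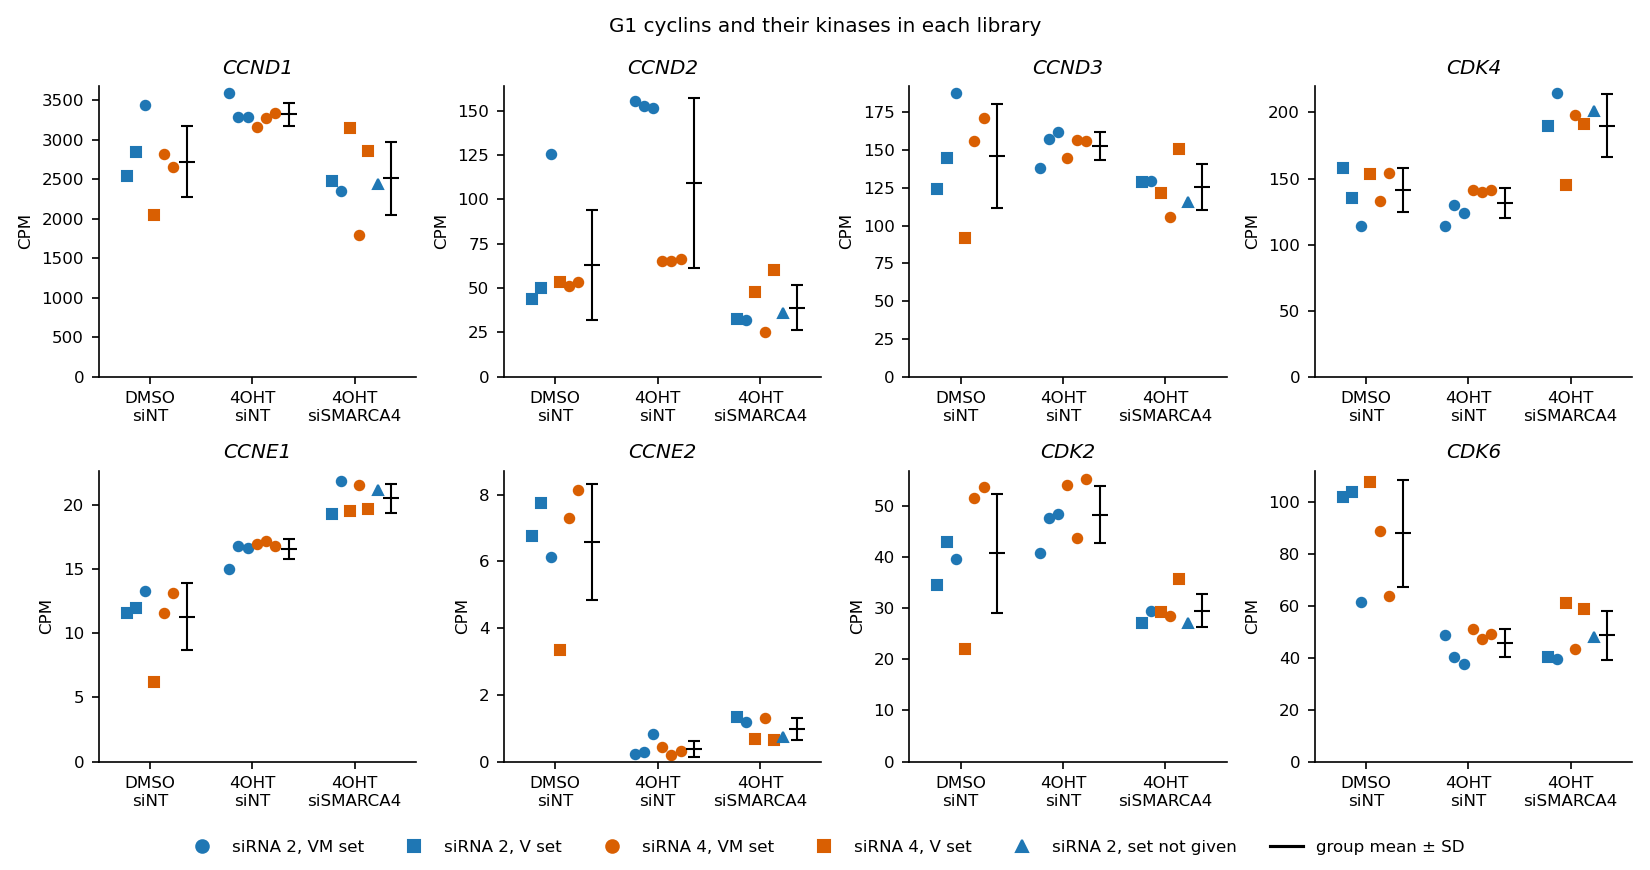
Each point is the level of a gene in 1 library (y axis, CPM from 0), by group on the x axis; colour gives the siRNA number, shape the set letters, and the bar at the right of each group the mean ± SD (n = 6). CCNE2 collapses in both 4OHT groups, CDK4 and CCNE1 are highest in 4OHT_siSMARCA4, and CCND2 in 4OHT_siNT falls into a pair of tight clusters by siRNA.

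To ask what loss of SMARCA4 changed in senescent cells, 4OHT_siSMARCA4 was compared with 4OHT_siNT. CDK4 and CCNE2 rose, and CCND2 and CDK2 fell. That is 2 of 8 higher and 2 of 8 lower, against 4.99% and 5.65% of all genes. The groups did not overlap for 5 of 8 members (CCND1, CCND2, CCNE1, CDK2 and CDK4), against 11.4% of all genes. Within VM libraries, which hold only 2 knockdown libraries against 6 controls, 7 members were called, all but CDK6, with 21% of all genes called. Without DMSO_siNT 4-2V, a library that is in neither arm but enters the shared estimate of the spread, 7 members were called as well, with 24.6% of all genes (3269 in place of 1397). With the set name as a block in the fit, which leaves out the unlabelled library, no member was called, with 1.77% of all genes called. The groups compared differ in set letters, which cannot be told apart from the knockdown in the V libraries.

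CDK4 encodes the kinase that carries most of the message of its pair. The 4OHT_siNT libraries held 113.8, 123.7, 129.7, 139.6, 141.1 and 141.1 CPM and the knockdown libraries 145.3, 190.1, 191.3, 198.0, 200.8 and 215.0 CPM. The groups did not overlap, with the lowest knockdown library (4-2V) close to the controls. CDK4 rose by 0.53 ± 0.11 on the log2 scale (adjusted p = 0.00294) and by 0.64 within VM libraries. TSPAN31 on the other strand was at 5.47 to 11.8 and 6.85 to 16.1 CPM. CDK6 was at 37.5 to 51.1 and 39.4 to 61.2 CPM (0.09 ± 0.16, adjusted p = 0.775), and its sign turned within VM libraries (−0.15, adjusted p = 0.505).

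CDK2 was at 40.9, 43.8, 47.7, 48.4, 54.2 and 55.3 CPM in 4OHT_siNT. In 4OHT_siSMARCA4 it was at 27.1, 27.2, 28.5, 29.4, 29.5 and 35.8 CPM, all lower. CDK2 fell by 0.71 ± 0.16 on the log2 scale (adjusted p = 0.00731) and by 0.75 within VM libraries. PMEL, which shares 2.29% of the CDK2 exon bases on the opposite strand, moved the same way. It went from 5.83 to 8.46 CPM in 4OHT_siNT to 0.727 to 1.57 CPM in 4OHT_siSMARCA4, a difference smaller than that of CDK2 in CPM. The part of PMEL in the CDK2 counts was not tested.

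Both E-type cyclins had higher means after the knockdown, and 1 of them was called. CCNE2 was at 0.660, 0.673, 0.727, 1.20, 1.30 and 1.34 CPM in 4OHT_siSMARCA4, or 8 to 17 counts a library and 76 in all. It rose by 1.35 ± 0.35 on the log2 scale (adjusted p = 0.0176; 1.69 within VM libraries), 1 control library at 0.813 CPM lay inside the knockdown range, and the mean was still 14.9% of that in DMSO_siNT. CCNE1 was at 19.3, 19.5, 19.7, 21.2, 21.6 and 21.9 CPM, all above the highest control at 17.2 CPM, with a log2 fold change of 0.31 ± 0.13 (adjusted p = 0.142). It was called within VM libraries (0.38, adjusted p = 0.0264) and without DMSO_siNT 4-2V (0.30, adjusted p = 0.00713).

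All 3 D-type cyclins had lower means after the knockdown. CCND2 fell by 1.49 ± 0.31 on the log2 scale (adjusted p = 0.00394), 2.81-fold, and by 1.95 within VM libraries. CCND1 was at 1791 to 3151 CPM against 3160 to 3593 CPM, without overlap (−0.40 ± 0.13, adjusted p = 0.0588). CCND1 was called within VM libraries (−0.70, adjusted p = 0.00173) and when DMSO_siNT 4-2V (adjusted p = 0.00989), DMSO_siNT 2-2VM (0.0425) or 4OHT_siSMARCA4 4-2V (0.0227) was left out. CCND3 was at 105.9 to 150.7 CPM (−0.28 ± 0.13, adjusted p = 0.199), and it was called within VM libraries (−0.39, adjusted p = 0.0224) and without DMSO_siNT 4-2V (−0.29, adjusted p = 0.0332).

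**Figure D3:**
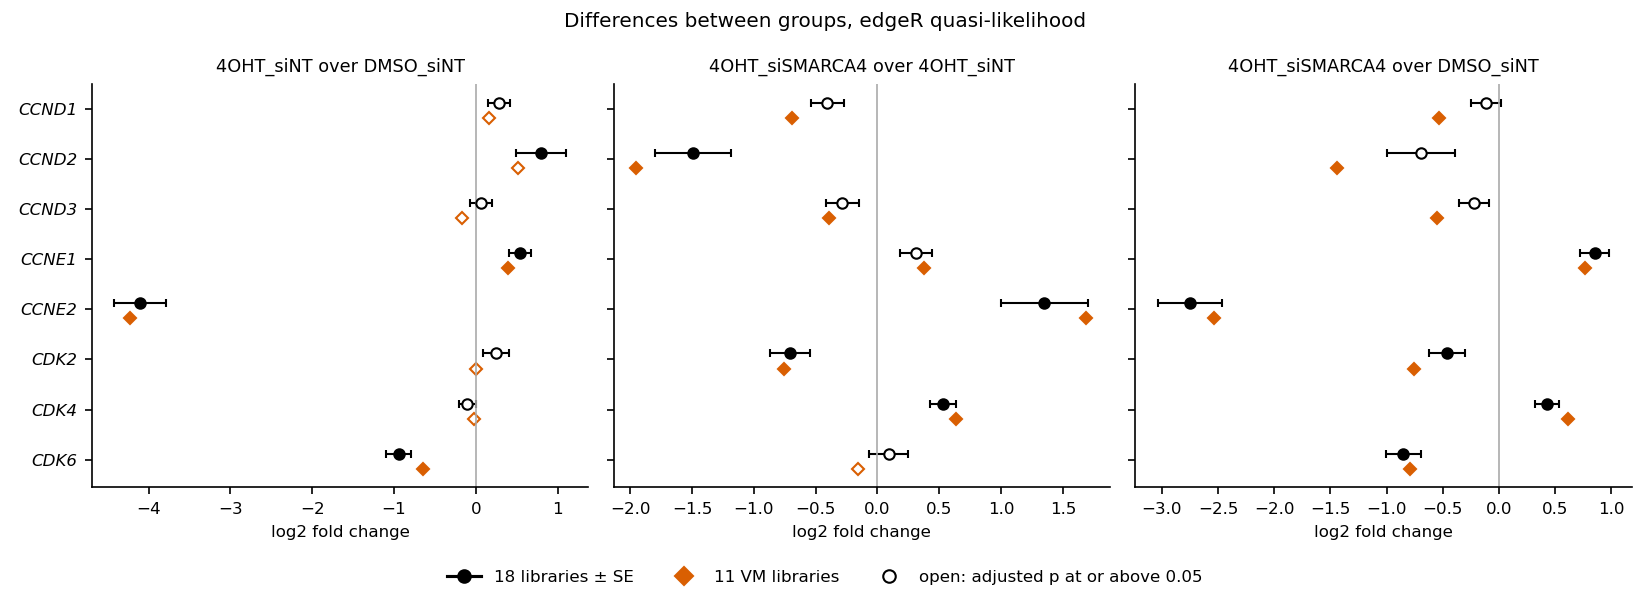
Points give the log2 fold change (x axis) of each gene in the 3 comparisons from the fit of 18 libraries (black, with SE) and from the 11 VM libraries (orange, no error drawn); filled points had an adjusted p under 0.05. With the knockdown, 7 of 8 genes are filled within VM libraries, which hold 2 knockdown libraries, and 4 of 8 in the whole fit.

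The 2 siRNAs of each arm were then set apart in a fit with treatment and siRNA number as 6 levels. The knockdown differences had the same sign with both pairs of siRNAs for all 8 members. In 4OHT_siNT, CCND2 was at 151.5, 152.8 and 155.3 CPM with siNT 2 and at 65.4, 65.4 and 66.6 CPM with siNT 4, a difference of 1.22 ± 0.31 on the log2 scale (p = 0.00131, adjusted p = 0.154) between non-targeting controls. No member was called between these controls and 1 had an unadjusted p under 0.05, against 0.0732% of all genes called. In DMSO_siNT the VM library with siNT 2 was at 125.7 CPM and the other 5 were at 43.9 to 53.7 CPM, V libraries with siNT 2 included. The knockdown libraries held 31.9, 32.5 and 36.2 CPM with siSMARCA4_2 and 25.2, 47.6 and 60.3 CPM with siSMARCA4_4. Set against its own control, CCND2 fell by 2.19 ± 0.33 with siRNAs 2 (adjusted p = 0.000618) and differed by −0.59 ± 0.31 with siRNAs 4 (adjusted p = 0.349). The difference between these effects was −1.60 ± 0.45 (p = 0.00233, adjusted p = 0.363). The 4OHT effect on CCND2 was likewise 1.08 ± 0.31 with siNT 2 (adjusted p = 0.012) and 0.33 ± 0.31 with siNT 4 (adjusted p = 0.389), a difference of 0.75 ± 0.44 (p = 0.108).

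**Figure D4:**
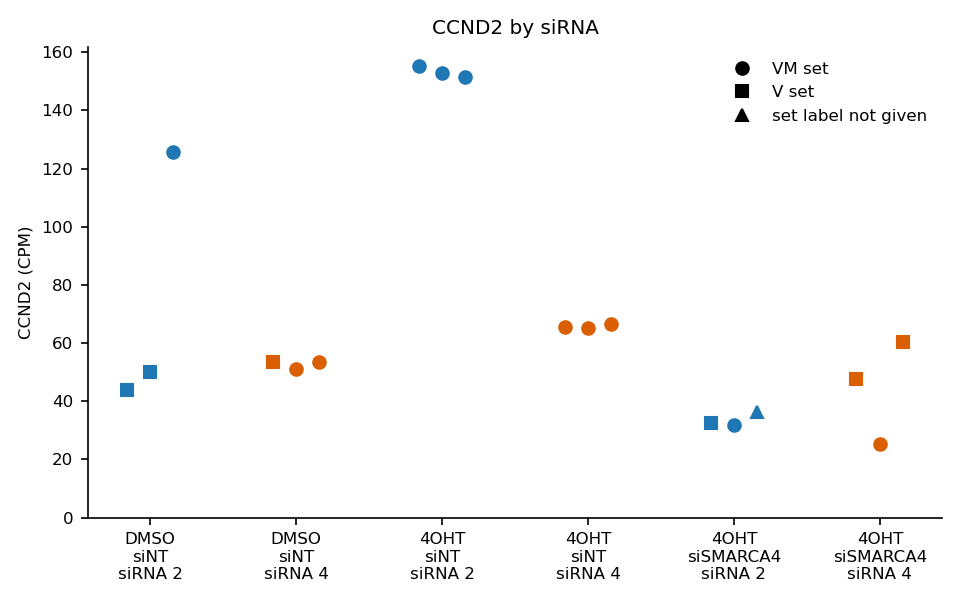
Each point is CCND2 in 1 library (y axis, CPM from 0) by group and siRNA number; shape gives the set letters. The 4 VM libraries with siNT 2 lie between 125.7 and 155.3 CPM and all other libraries between 25.2 and 66.6 CPM.

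For the other members the siRNAs gave closer values. CDK2 differed by −0.71 ± 0.24 with siRNAs 2 and by −0.73 ± 0.24 with siRNAs 4 (adjusted p = 0.084 and 0.108). CCNE2 differed by 1.31 ± 0.51 and 1.39 ± 0.55 (adjusted p = 0.139 and 0.188). CDK4 rose by 0.72 ± 0.14 with siRNAs 2 (adjusted p = 0.00455) and differed by 0.32 ± 0.14 with siRNAs 4 (adjusted p = 0.232); the difference between the effects was 0.40 ± 0.20 (p = 0.0587). With siRNAs 2, 2 members were called (CCND2 and CDK4), against 7.67% of all genes. With siRNAs 4, none was called by edgeR and 3 had an unadjusted p under 0.05, against 2.71% of all genes called. SMARCA4 itself fell by 1.56 ± 0.21 and 1.66 ± 0.21 on the log2 scale.

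V and VM libraries of the same group were compared, which does not isolate the sets. In DMSO_siNT the V libraries were 2 with siNT 2 and 4-2V, the library with little ESR1 and HRAS. The VM libraries were 1 with siNT 2 and 2 with siNT 4. In 4-2V, CCND3 was at 92.0 CPM (124.3 and 145.2 in the other V libraries), CDK2 at 22.0 (34.6 and 43.1) and CDK6 at 107.5 (101.9 and 103.7). The comparison was not made without 4-2V. No member was called by edgeR in either group. In DMSO_siNT 3 had an unadjusted p under 0.05, with 0.324% of all genes called: CCND3 (−0.52 ± 0.16, V over VM, adjusted p = 0.154), CDK2 (−0.55 ± 0.21, adjusted p = 0.22) and CDK6 (0.53 ± 0.18, adjusted p = 0.183). In 4OHT_siSMARCA4 1 had, with 0.101% of all genes called: CCND1 (0.44 ± 0.19, adjusted p = 0.543). SMARCA4 was also less reduced in V libraries there, with a difference of 0.59 ± 0.17 (adjusted p = 0.247).

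To place the knockdown cells beside growing ones, 4OHT_siSMARCA4 was compared with DMSO_siNT. These comparisons share libraries with the previous ones. CCNE1 and CDK4 rose, and CCNE2, CDK2 and CDK6 fell, or 2 higher and 3 lower of 8 against 23.3% and 27.3% of all genes; 3 members did not overlap (CCNE1, CCNE2 and CDK6), against 29.6%. CCNE1 rose by 0.85 ± 0.13 (adjusted p = 2.03e-05) and CDK4 by 0.43 ± 0.11 (adjusted p = 0.00219) on the log2 scale. CCNE2 fell by 2.75 ± 0.28 (adjusted p = 1.14e-07) and CDK6 by 0.85 ± 0.16 (adjusted p = 0.000126). CDK2 fell by 0.47 ± 0.16 (adjusted p = 0.0205), a call lost without DMSO_siNT 4-2VM (−0.39, adjusted p = 0.0556) or 4-3VM (−0.37, adjusted p = 0.0604). CCND1, CCND2 and CCND3 differed by −0.12 ± 0.13, −0.69 ± 0.30 and −0.22 ± 0.13 (adjusted p = 0.484, 0.0645 and 0.184). Within VM libraries, with 2 of the knockdown and 3 growing, all 8 were called, with 43.9% of all genes called. The log2 fold changes there were −0.53, −1.44 and −0.56 for CCND1, CCND2 and CCND3. Without DMSO_siNT 4-2V, 7 were called, with 59.1% of all genes, CCND2 (−0.74, adjusted p = 0.045) and CCND3 (−0.33, adjusted p = 0.0094) among them. The call of CCND2 was also gained without DMSO_siNT 2-1V (−0.78) or 4OHT_siSMARCA4 4-3V (−0.85).

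CCNE1 and CDK4 were thus the members higher in the knockdown cells than in growing cells, and their promoters are shown for that reason. Windows of 4 of the 8 members were taken from the RefSeq promoter table used (GRCh38.p14, 250 bases before to 50 after each start). The remaining members were not searched, and this count does not show that they have no entry. The windows were searched on both strands for the letters of an E-box, CACGTG, a site that MYC and its relatives can bind, and for the E2F spellings TTTCCCGC, TTTGGCGC, TTTCGCGC and TTTGCCGC. The E-box was chosen after the sequences had been read. Capitals mark matches, and the windows are chr12:57752261-57752560, minus strand, for CDK4 and chr19:29811741-29812040, plus strand, for CCNE1, both 5′ to 3′.
CDK4: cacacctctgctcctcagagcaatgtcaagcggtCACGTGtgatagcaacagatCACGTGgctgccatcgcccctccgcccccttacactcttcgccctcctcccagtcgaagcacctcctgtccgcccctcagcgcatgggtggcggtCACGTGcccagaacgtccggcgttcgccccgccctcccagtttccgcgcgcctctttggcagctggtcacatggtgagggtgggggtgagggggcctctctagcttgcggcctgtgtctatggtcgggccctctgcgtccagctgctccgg
CCNE1: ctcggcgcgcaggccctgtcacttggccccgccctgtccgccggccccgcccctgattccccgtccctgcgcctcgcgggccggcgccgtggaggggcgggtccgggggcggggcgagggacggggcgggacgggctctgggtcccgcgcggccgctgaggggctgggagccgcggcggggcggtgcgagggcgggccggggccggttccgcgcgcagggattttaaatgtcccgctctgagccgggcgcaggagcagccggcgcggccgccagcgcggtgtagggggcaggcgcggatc
The CDK4 window held 3 E-boxes, 216, 196 and 101 bases upstream of the start, and no E2F spelling. The CCNE1 window held neither, which says only that these letters are absent there. CDK6 and CCND3 were also searched. Of the 2 windows of CDK6, which was lower in the knockdown cells than in growing cells, 1 held 1 E-box downstream of its start. The 3 windows of CCND3 held no match. Of 35116 windows of 300 bases, 7.26% held at least 1 E-box and 3.31% an E2F spelling.

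The rest of the pathway was described by lists, counted with the same test. Between DMSO_siNT and 4OHT_siNT the replication genes and the later cyclins and kinase were lower, and the other lists moved in both directions, against 23.9% of all genes called higher and 28.9% lower. Each of the 12 E2F-driven replication genes passed the test as lower (median −1.75 on the log2 scale, against −0.05 over all genes), and RRM2, a subunit of ribonucleotide reductase, fell by 3.89 ± 0.24. All 4 later cyclin and kinase genes were called lower, with a median of −4.43, and CDK1, the mitotic kinase, fell by 5.38 ± 0.30. The 7 CDK inhibitor genes divided into 3 higher and 3 lower. CDKN2B, which encodes the CDK4 and CDK6 inhibitor p15, rose by 4.00 ± 0.11, CDKN1A, which encodes p21, by 1.29 ± 0.10, and CDKN2A by 1.02 ± 0.18. CDKN2C, which encodes p18, fell by 3.69 ± 0.28, CDKN1B, which encodes p27, by 1.16 ± 0.11, and CDKN1C by 2.33 ± 0.47. The size of the CDKN1C fall rests in part on DMSO_siNT 4-2V, at 32.3 CPM against 4.00 to 7.70 CPM in the other growing libraries. Without that library this list still had 3 genes higher and 3 lower. Of 11 tested genes for pocket proteins, E2F and DP factors, 3 were higher and 3 lower, from E2F7, a repressor, at 2.55 ± 0.26 to RBL1, which encodes the pocket protein p107, at −2.54 ± 0.21, so that these counts are near the background; without DMSO_siNT 4-2V 4 of 12 were higher and 5 lower. Of 7 genes that activate or assemble the kinases, 4 were lower and 1 higher, with CKS1B at −2.24 ± 0.35 and CDC37, a chaperone partner of kinases, at 0.61 ± 0.24. CKS1B was at 31.7 CPM in DMSO_siNT 4-2V, against 6.21 to 11.9 CPM in the other growing libraries. Its log2 fold change ran from −2.36 to −1.69 when 1 library was left out, and its call was kept. Without DMSO_siNT 4-2V, 2 of these 7 were lower and 2 higher: CDK7, the kinase that activates other CDKs, was at −0.65 with that library (adjusted p = 0.0434) and −0.16 without it (adjusted p = 0.161), and MNAT1, its assembly factor, at −0.78 (adjusted p = 0.0224) and −0.30 (adjusted p = 0.0548). Of 6 genes of cyclin turnover, SKP2, the F-box protein that marks p27 for destruction, fell by 1.43 ± 0.13, FBXO31 rose by 0.22 ± 0.09 and 4 were not called, counts under the background. Transcription factors listed here as inducers of D-type cyclins were mostly up: 6 of 7 were higher (5 of 7 without DMSO_siNT 4-2V), with ETS2 at 1.27 ± 0.14 and MYC at 0.70 ± 0.14, and FOSL1 was lower at −0.63 ± 0.18. EGR1 was called by a narrow margin (adjusted p = 0.0499). The list includes JUNB (0.73 ± 0.28), and whether each factor induces a D-type cyclin in these cells was not tested. The calls of CDC37 and FBXO31 were lost in 4 and 7 of 18 fits that left out 1 library (adjusted p up to 0.0756 and 0.108). Within VM libraries FBXO31 was not called, and 3 of the 7 genes that activate or assemble the kinases were lower in place of 4. The other named genes, CDK7 and MNAT1 aside, stayed called.

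After the knockdown most of these genes did not pass the test, and 4.99% of all genes were called higher and 5.65% lower. Of the CDK inhibitor genes 3 of 7 were lower and none higher: CDKN2A fell by 0.64 ± 0.18 (adjusted p = 0.0272), CDKN2B by 0.63 ± 0.10 (adjusted p = 0.000453) and CDKN1A by 0.39 ± 0.10 (adjusted p = 0.0193). CDKN2B remained far above the growing cells, at 234.1 to 280.0 CPM against 19.2 to 28.3 CPM. Of the later cyclin and kinase genes, CDK1 rose by 1.44 ± 0.33 (adjusted p = 0.00791) and CCNA2 by 0.80 ± 0.24 (adjusted p = 0.0415), the latter a call lost in 11 of 18 fits that left out 1 library (0.66 to 0.94, adjusted p up to 0.12). CDK1 was at 0.341 to 1.02 CPM in 4OHT_siNT and at 0.785 to 2.56 CPM after the knockdown, low levels with overlapping ranges. In growing cells it was at 17.7 to 34.2 CPM. Of the 12 replication genes RRM2 rose by 1.07 ± 0.23, CDT1, a replication licensing factor, fell by 0.54 ± 0.14, and 10 were not called. CKS2 rose by 0.92 ± 0.19 and ETS2 by 0.63 ± 0.14. Of the 11 pocket protein, E2F and DP genes and the 6 of cyclin turnover, none was called by edgeR or by DESeq2 in the fit of 18 libraries, and 2 and 0 had an unadjusted p under 0.05. Within VM libraries, with 21% of all genes called, 1 of 12 pocket protein, E2F and DP genes was higher and 2 lower, and 0 of 6 of cyclin turnover were called. There, 1 of 7 factors listed for D-type cyclins was higher and 3 lower. Of the CDK inhibitor genes 1 was higher and 3 lower, and of the replication genes 1 was higher and 2 lower. Without DMSO_siNT 4-2V, when 24.6% of all genes were called, 2 of 12 pocket protein, E2F and DP genes were higher, 3 of 12 replication genes were lower, 1 CDK inhibitor gene was higher (CDKN1C, 0.96) and MYC was lower (−0.43, adjusted p = 0.00204, against −0.42 and 0.0608 with that library). Leaving out the unlabelled library ended the calls of CDKN1A (−0.37, adjusted p = 0.0501), CDKN2A (−0.65, 0.0542) and CDT1 (−0.51, 0.051), leaving out 4OHT_siSMARCA4 4-2VM that of CDT1 (−0.48, 0.0526), and leaving out 4OHT_siNT 4-1VM or 4OHT_siSMARCA4 4-3V that of CDKN2A (−0.62 and −0.58).

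**Figure D5:**
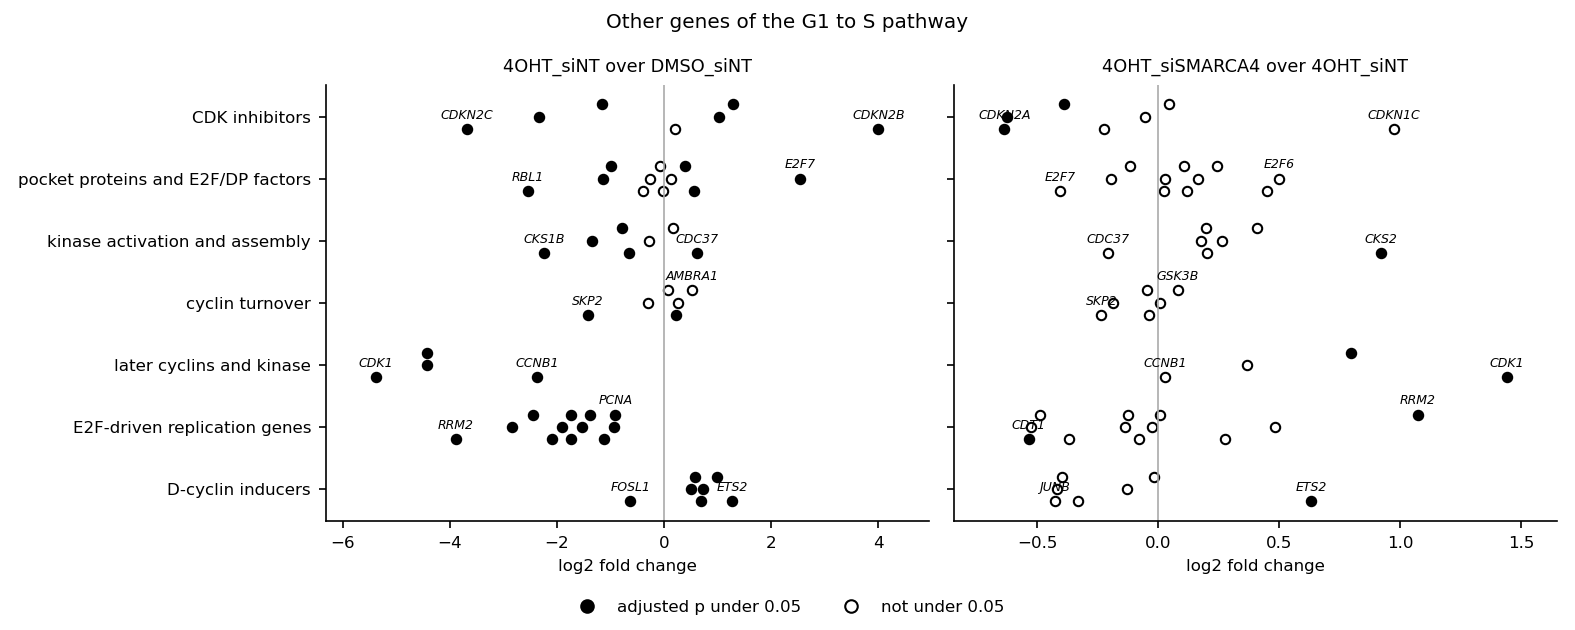
Each point is 1 gene of a list (rows) with its log2 fold change on the x axis in 2 comparisons; filled points had an adjusted p under 0.05, and the names mark the lowest and the highest gene of each row. On the left the later cyclins and the replication genes lie wholly below 0, and on the right most points lie within 0.5 of 0.

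Within groups, the members varied together in part. Deviations of log2 CPM from the group means were correlated over 18 libraries, which share depth and composition differences. CCND1 and CCND2 went against CDK4 (Pearson r = −0.70 and −0.69; −0.71 and −0.69 without DMSO_siNT 4-2V). CDK2 went with CCND3 and CCNE1 (0.79 and 0.78), but these values fell to 0.51 and 0.19 without that library. Of all genes with a mean log2 CPM over 1, those most like each member were CHSY3, NRK and TMEM132B for CCND1, TMEM30A, ZNF804A and CASC4 for CCND2, MLLT11, TSPAN11 and PLPPR2 for CCND3, and HCN2, GAS2L1 and H2AC6 for CCNE1. For CCNE2 they were ZNF34, DSCC1 and EMC4, for CDK2 ATP5F1B, RPN1 and POLR2C, for CDK4 LGALS3, SQSTM1 and UROD, and for CDK6 PALM2AKAP2, CEP350 and VIRMA. The r of the first-named gene ran from 0.79 for CCNE2 to 0.97 for CCNE1. Each is the highest of 11514 genes compared, so high values are selected, and none was tested. Without the 2 libraries farthest from their group mean for the member, the r of the first-named gene ran from 0.66 for CDK2 to 0.90 for CDK6.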

How the data were processed

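Polyadenylated RNA of IMR90 ER:RAS cells was made into strand-specific libraries. The submitters' processing notes name STAR 2.7.8a, DESeq2 1.36.0 and hg38; the annotation and the counting program are not given in the sources used here. The values deposited by the authors were raw counts per gene, not normalized, in 36 columns; the 2 lanes of a library were summed to 18 libraries, and every column was used. Of 29 labelled samples 17 matched a column by treatment, siRNA and set, and the others were not analysed here. One further column read 1VM with siSMARCA4_2, a set no sample title gives for that siRNA, and it was used as a replicate with no set label.

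Genes were filtered with filterByExpr of edgeR 4.0.16 (minimum count 10), which kept 13136 genes and 99.9% of counts, and scaled with TMM. All 18 libraries entered 1 quasi-likelihood fit of group means. p-values were adjusted over all genes by the Benjamini-Hochberg method, and genes were called at an adjusted p under 0.05. SE were derived from the F statistic. The test was checked on simulated counts drawn independently for each library. They held no differences by set, by siRNA number or in a library that stood apart, so the check does not cover these. The common biological coefficient of variation was 23.3%, and total counts of 9657309 to 18039313 limit the precision of CCNE2 most. The siRNA fit tested 13659 genes. Whether libraries came from separate cultures is not stated, so p-values measure the spread between these libraries, which may be technical. Pairs of libraries within a group differed by more than sampling noise (chi-square per degree of freedom 2.33 to 315 over 45 pairs). Set names recur across groups. Of 7 same-named pairs 3 had correlated deviations over 0.1 (−0.23 to 0.27), and sets were not taken as pairs. These 3 were all the pairs of set 3VM (0.27, 0.15 and 0.16), so this check cannot show that sets were unshared. With the set as a block in the fit, no member was called after the knockdown.

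The members and gene lists were chosen with earlier results of these data known. Named genes are the members, SMARCA4, overlapping genes, the 3 genes most like each member by within-group deviations, and for each list the called gene with the largest rise and fall. CDKN1A, CDKN1B, CDKN1C, CDKN2B, CDK7, MNAT1, MYC and CCNA2 were also named, after their values were seen. DESeq2 1.42.0, other scalings and filters, set and siRNA subsets, a replicate block and leaving out each library were alternatives; VM sets with the unlabelled library, the 4OHT effect by siRNA and list counts without DMSO_siNT 4-2V were added after seeing the data.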

Additional observations from a re-analysis of the deposited data

Results flagged for a closer look

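In each group of 6 libraries, the distance from the highest or the lowest library to its nearest neighbour was divided by the range of log2 CPM. Values above Dixon's 95% limit arose in 6 of 27 sets of libraries, where chance gives about 1.35. Of these, 2 came from DMSO_siNT 4-2V, the library with little ESR1 and HRAS: CCNE1 at 6.22 CPM (next 11.6 CPM, ratio 0.817) and CCNE2 at 3.35 CPM (next 6.14 CPM, ratio 0.679). CCND2 in DMSO_siNT 2-2VM was at 125.7 CPM, with the next library at 53.7 CPM (ratio 0.809). CCNE1 in 4OHT_siNT 2-1VM was low at 15.0 CPM (next 16.6 CPM, ratio 0.755). CDK2 in 4OHT_siSMARCA4 4-3V was high at 35.8 CPM (next 29.5 CPM, ratio 0.702). CDK4 in 4OHT_siSMARCA4 4-2V was low at 145.3 CPM (next 190.1 CPM, ratio 0.686), and this library also kept the most SMARCA4 of its group, at 140.7 CPM. The part of any of these libraries in the group differences was tested by leaving it out, and the values that changed a call are given with the results.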

How the results depend on the processing

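Of 692 values for single members under alternatives, 620 kept direction and side of the threshold, 29 lost a call, 34 gained one and 9 turned sign, none of these with a call on either side; the cause was not tested. In the order 4OHT_siNT over DMSO_siNT, 4OHT_siSMARCA4 over 4OHT_siNT and 4OHT_siSMARCA4 over DMSO_siNT, 4, 4 and 5 members were called. Requiring a 2-fold change as well left 1, 2 and 1, with 21.5%, 3.51% and 21.5% of all genes. With the set as a replicate block, 2, 0 and 3 were called, with 32.7%, 1.77% and 35.1% of all genes (236 after the knockdown in place of 1397). VM sets gave 7 and 8 in the last 2 comparisons, without and with the unlabelled library, with 21% and 43.9% of all genes without it and 30.4% and 49.7% with it. With siRNA 4 alone 0 and 3 were called in them, with 0.0303% (4 genes) and 31.2% of all genes. Leaving out 1 library gave 4 to 7 after the knockdown, with 6.93% to 24.6% of all genes.

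Values without a call that turned sign are given on the log2 scale. For CCND3 in 4OHT_siNT over DMSO_siNT they were −0.037 with the replicate block, −0.17 in VM sets, without and with the unlabelled library, and −0.033 to 0.15 when 1 library was left out. With the unlabelled library CDK2 was at −0.0019 there, and CKS2 was at 0.014 with siRNA 2 alone. After the knockdown CDK6 was at −0.078 with the block, −0.15 in VM sets and −0.079 with the unlabelled library. CDC37, FBXO31 and FOSL1 were at 0.15, 0.0022 and 0.15 with the block. In VM sets FOSL1 was at 0.0495 and CDKN2C at 0.18 (0.13 with the unlabelled library). With siRNA 2 alone CDKN2C was at 0.056 and FBXO31 at 0.041, and leaving out 1 library gave −0.0845 to 0.0028 for FBXO31. With siRNA 4 alone CCND1 was at 0.061 and CDKN2A at −0.0755 in 4OHT_siSMARCA4 over DMSO_siNT. Scaling moved the median of all genes by under 0.1 on the log2 scale. The exon length moved 12 of 21 family shares by more than 1 SD. CCNE2 in 4OHT rests on 3 to 17 counts a library.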
